A study of Mus musculus with 8 samples.

Results

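The Hedgehog pathway genes described here are 9 named genes of the 55421 gene identifiers in the table: the ligands Shh and Ihh, the receptor Ptch1, the co-receptor Boc, the ligand-binding antagonist Hhip, the signal transducer Smo and the transcription factors Gli1, Gli2 and Gli3. They were taken by name, with earlier results of these data known, and all 9 passed the filter on low values, which kept 16699 genes. Poly-A RNA was sequenced from mouse embryos (Mus musculus) at E9.25, with 9 to 11 somites, that were wild type (wt) or carried Gcnf-/-. Nr6a1 is the gene for Gcnf (germ cell nuclear factor), a nuclear receptor without a known ligand. Each embryo piece was anterior, with pharyngeal arch 1 and everything in front of it, or posterior, from pharyngeal arch 2 backwards. The 4 groups (wild-type anterior, mutant anterior, wild-type posterior and mutant posterior) held 2 libraries each, numbered 153 and 156 in the wild type and 159 and 163 in the mutant. The labels give no mutant allele, strain or somite count per library, and do not say whether libraries came from separate embryos or pools, so the spread that the p-values rest on is that of these libraries and may be technical.

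Hedgehog ligands are secreted by signalling centres such as the notochord and the floor plate of the neural tube, where Shh is made, and by the gut endoderm, where Shh and Ihh are made. In cells without ligand, Ptch1 holds Smo inactive and Gli3 is cut into a repressor at the primary cilium. Ligand bound to Ptch1, with help from Boc and its relatives, frees Smo, and Gli2 and Gli3 then act as activators. Gli1, Ptch1 and Hhip are transcribed in response to the signal and are commonly read as its output, and Ptch1 and Hhip in turn dampen it.

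In the mutant, Boc was higher in both pieces, Gli1 was higher in the posterior pieces and Shh was lower in the anterior pieces. The call of Shh was lost under 10 of 21 alternatives, and the posterior calls of Gli1 and Boc were lost without either wild-type posterior library. Ihh was higher in the posterior than in the anterior pieces of both genotypes, and Gli3 was higher in the anterior pieces of both. Within the mutant, 7 of the 9 genes differed between the pieces, where 16.1% of all tested genes did, and within the wild type 4 of 9, where 14.5% did. The wild-type count was 1 without anterior library 156 or either posterior library. No difference between the anterior and the posterior genotype effect passed the test for any of the 9 genes.

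Reads in genes numbered 27064113 to 52957993 per library, so that 3 reads in a gene of 1 kb were worth 0.2 to 0.403 TPM (a share of all transcripts, corrected for gene length). The labels of region were matched by markers. The summed level of 3 forebrain and midbrain markers (Otx2, Six3 and Lhx2) was 213 to 244 TPM in the anterior libraries and 2.27 to 9.14 TPM in the posterior ones. That of 4 trunk and tail markers (Hoxb9, Hoxc8, Tbx6 and Hoxa7) was 1.14 to 3.44 TPM in the anterior and 162 to 494 TPM in the posterior libraries. Nr6a1, the targeted gene, was not lowered in the libraries labelled mutant: limma gave a difference of 0.14 on the log2(TPM + 1) scale in the anterior pieces (adjusted p = 0.52) and -0.25 in the posterior pieces (adjusted p = 0.31). With the deleted part not given, this level does not check the genotype. Xist was present in both libraries numbered 159 (25.3 and 30.9 TPM) and near 0 in the others, which had the Y-linked Ddx3y at 26.2 to 39.4 TPM, so that sex was not balanced between the genotypes.

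**Figure D1:**
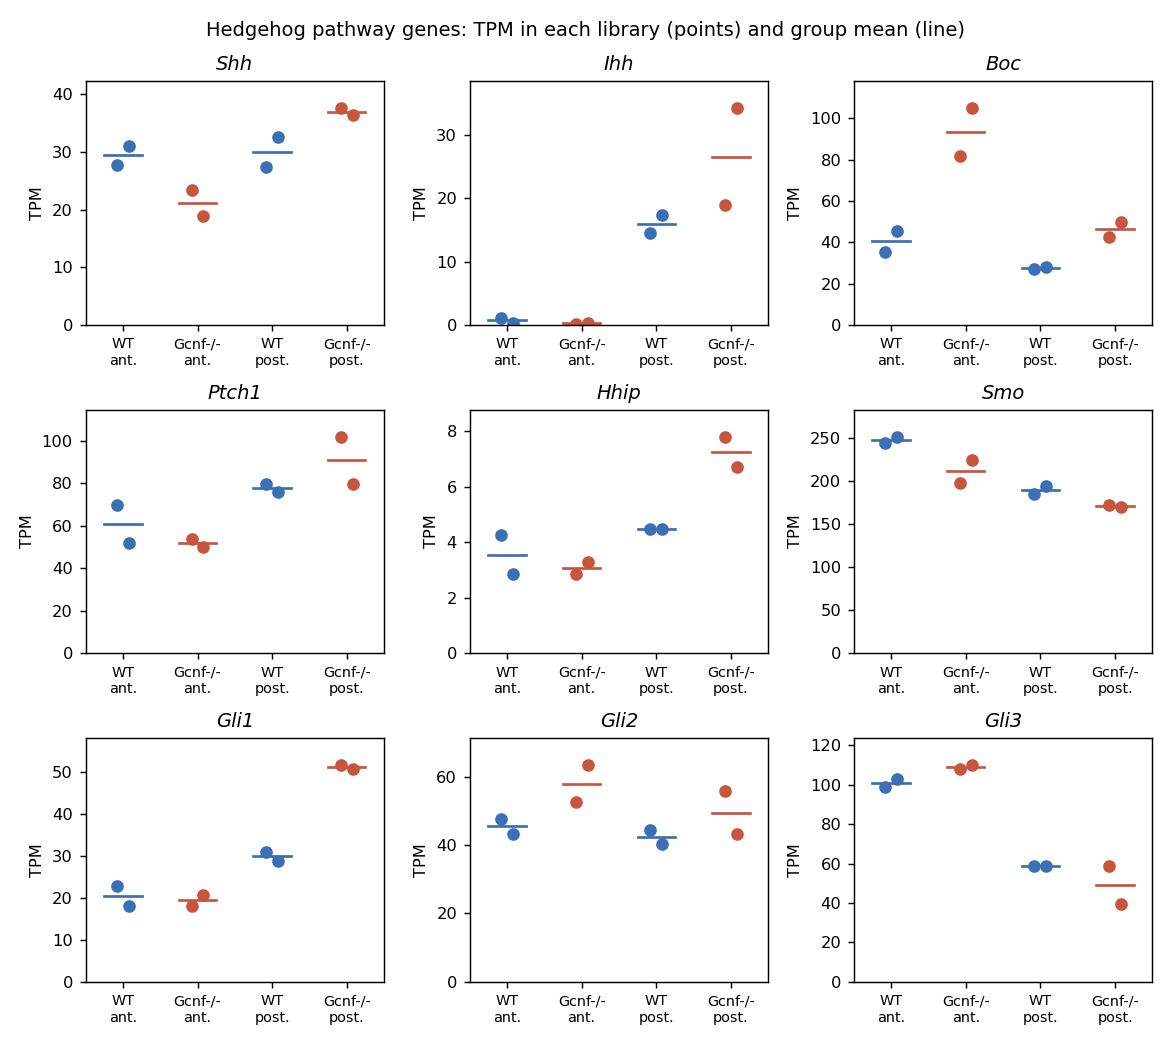
TPM (vertical axis, starting at 0) of each Hedgehog pathway gene in the 4 groups (horizontal axis), with 1 point per library and a line at the group mean of 2 libraries, wild type in blue and Gcnf-/- in red. Ihh stays at or below 1.12 TPM in all anterior libraries, both mutant anterior libraries lie highest for Boc (81.9 and 105 TPM), and both mutant posterior libraries lie highest for Gli1 (51.6 and 50.7 TPM).

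TPM is corrected for length, so levels of different genes can be set in order. Smo had the highest TPM of the 9 genes in every group, with means from 172 to 248 TPM. In the anterior pieces Gli3 came next, at a mean of 101 TPM in the wild type and 109 TPM in the mutant. In the posterior pieces the second place was taken by Ptch1, at 77.8 TPM in the wild type and 91 TPM in the mutant. Hhip and Ihh had the lowest TPM in every group, with Ihh below Hhip in the anterior pieces and above it in the posterior ones. Neighbours in the order that overlapped between libraries were Gli2 and Boc in the wild-type anterior pieces, Gli2 and Ptch1 as well as Shh and Gli1 in the mutant anterior pieces, and Shh and Gli1 in the wild-type posterior pieces. In the mutant posterior pieces, Gli1, Gli2, Gli3 and Boc followed each other with overlapping libraries, at means of 51.2, 49.6, 48.9 and 46.2 TPM.

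Shh lies on chromosome 5 (28456815 to 28467256, minus strand, mm10). In the anterior pieces it stood at 27.8 and 31.1 TPM in the wild type and at 23.4 and 18.8 TPM in the mutant. Both mutant libraries were below both wild-type libraries. The means were 29.5 ± 2.33 TPM (SD, n = 2) and 21.1 ± 3.26 TPM (SD, n = 2), and the difference, mutant minus wild type, was -0.47 ± 0.14 (SE) on the log2(TPM + 1) scale, with an adjusted p of 0.036 from limma's moderated test with Benjamini-Hochberg adjustment over all tested genes. Posterior Shh stood at 27.3 and 32.6 TPM in the wild type and at 37.6 and 36.4 TPM in the mutant. The mutant libraries were here the higher ones, but the difference of 0.30 ± 0.14 did not pass (limma adjusted p = 0.19). The anterior call rested on few libraries: without mutant library 163 or wild-type library 156 the adjusted p was 0.2, and without wild-type library 153 it was 0.092. It was also lost under median-of-ratios scaling (adjusted p = 0.063), under quantile normalization (0.056), without globin and mitochondrial values (0.067) and without a filter (0.091). In these bulk pieces, fewer cells that make a transcript and less of it per cell cannot be told apart.

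Ihh, on chromosome 1 (74945315 to 74951672, minus strand), was near the detection limit in all anterior libraries. It stood there at 1.12 and 0.308 TPM in the wild type and at 0.198 and 0.294 TPM in the mutant, from 32, 9, 6 and 8 reads. Its posterior levels were 14.5 and 17.4 TPM in the wild type and 18.9 and 34.3 TPM in the mutant. Every posterior library was thus above every anterior one. Neither genotype effect passed, with -0.42 ± 0.30 in the anterior pieces (limma adjusted p = 0.34) and 0.65 ± 0.30 in the posterior pieces (adjusted p = 0.19). Among the ligands, Ihh made up 33.4% to 48.5% of the summed Shh and Ihh TPM in the posterior libraries and 0.839% to 3.87% in the anterior ones. The highest anterior share, 3.87%, was that of wild-type library 153. In that library the summed level of 5 visceral endoderm markers (Ttr, Afp, Apoa1, Apob and Apoa4) was 102 TPM, against 5.78 to 10.4 TPM in the other anterior libraries. Posterior sums of these markers came to 1510 to 1870 TPM in the wild type and 125 to 678 TPM in the mutant. Of the mutant sums, the lower belonged to library 159, where Ihh was also the lower of the mutant values. Between the genotypes the order was the opposite, as both mutant posterior libraries had lower sums and higher Ihh than both wild-type ones. The part of this tissue in the Ihh values was not tested. Without wild-type anterior library 153 the anterior genotype difference was -0.071.

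Boc, on chromosome 16 (44485049 to 44558897, minus strand), encodes a cell-surface protein that binds Hedgehog ligands and assists Ptch1. In the anterior pieces it stood at 35.5 and 45.3 TPM in the wild type and at 81.9 and 105 TPM in the mutant. Both mutant libraries were far above both wild-type ones. The ratio of the means was 2.31 (93.2 ± 16.0 TPM against 40.4 ± 6.91 TPM, SD, n = 2 each), and the difference was 1.18 ± 0.15 on the log2(TPM + 1) scale (limma adjusted p = 0.0013). Posterior Boc was at 26.8 and 27.9 TPM in the wild type and at 42.7 and 49.7 TPM in the mutant, again without overlap. The difference there was 0.73 ± 0.15 (limma adjusted p = 0.02), and the ratio of the means was 1.69. The anterior call held under all 21 alternatives, with differences from 1.01 to 1.36 and adjusted p from 0.00033 to 0.046. The posterior call was lost without mutant library 163 (limma adjusted p = 0.069), without wild-type library 153 (0.14) or 156 (0.091), without a filter (0.079) and with library weights (0.059). Averaged over both pieces, the genotype difference of Boc was 0.96 ± 0.11 (limma adjusted p = 0.00044). Of all tested genes 32.8% passed this averaged test, 19.7% as higher and 13.1% as lower in the mutant. Of those that passed, 60.1% were higher, a share that was 50.2% under median-of-ratios scaling and 46.2% under quantile normalization.

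Ptch1, the receptor that holds Smo inactive and is itself induced by the signal, lies on chromosome 13 (63508328 to 63573598, minus strand). It stood at 69.8 and 51.7 TPM in the wild-type and at 53.7 and 50.2 TPM in the mutant anterior pieces, with overlapping libraries. Posterior levels were 79.7 and 75.9 TPM in the wild type and 102 and 79.9 TPM in the mutant. The genotype differences were -0.21 ± 0.16 (limma adjusted p = 0.38) and 0.21 ± 0.16 (adjusted p = 0.42), with 95% intervals of -0.57 to 0.15 and -0.15 to 0.57. Without wild-type anterior library 153 the anterior difference was 0.0052, so even its sign rested on that library.

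Hhip, on chromosome 8 (79965851 to 80058006, minus strand), encodes a protein that binds Hedgehog ligands and keeps them from Ptch1. It was at 4.24 and 2.87 TPM in the wild-type and 2.86 and 3.27 TPM in the mutant anterior pieces. The posterior levels of Hhip were 4.49 and 4.47 TPM in the wild type and 7.8 and 6.72 TPM in the mutant. The mutant posterior libraries were the highest of the 8, at 1.62 times the wild-type mean, but the difference of 0.59 ± 0.18 missed the threshold (limma adjusted p = 0.065). The anterior difference of -0.15 ± 0.18 did not pass either (limma adjusted p = 0.58).

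Promoter sequences from RefSeq (build GRCm38.p6) were matched for 6 of the 9 members: Ihh, Ptch1, Smo, Gli2, Gli3 and Hhip. Each window ran from 250 bases before to 50 bases after the start. On both strands, 0 of the 6 held GACCACCCA, the consensus site of Gli proteins, or CCACCCA, its last 7 bases, or TCAAGGTCA, an extended site bound by Gcnf. Of all 25116 windows, 64 (0.255%) held the first, 2383 (9.49%) the second and 95 (0.378%) the third. The 250 bases before the start are shown for the receptor and the antagonist that the signal induces, Ptch1 and, chosen after its values were seen, Hhip, whose highest values were both in the mutant posterior pieces. Capitals mark 9 bases with as few mismatches to the Gli consensus as any in the window, and ties are not marked. The Ptch1 stretch is chr13:63565736-63565985, on the minus strand, inside the annotated extent of the gene but in no annotated exon, in front of a start downstream of the gene's outermost one. The Hhip stretch is chr8:80058009-80058258, on the minus strand, in front of the gene and in no exon.
Ptch1: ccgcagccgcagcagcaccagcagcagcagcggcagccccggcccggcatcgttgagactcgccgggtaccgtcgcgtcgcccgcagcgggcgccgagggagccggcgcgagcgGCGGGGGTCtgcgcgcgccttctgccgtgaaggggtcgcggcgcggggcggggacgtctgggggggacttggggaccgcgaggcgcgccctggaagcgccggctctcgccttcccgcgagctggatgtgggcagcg
Hhip: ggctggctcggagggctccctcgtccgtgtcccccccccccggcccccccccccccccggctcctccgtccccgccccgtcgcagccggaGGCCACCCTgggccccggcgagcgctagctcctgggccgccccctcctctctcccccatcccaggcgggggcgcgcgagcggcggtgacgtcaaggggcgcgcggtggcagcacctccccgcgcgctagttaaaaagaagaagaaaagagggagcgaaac
The marked stretch of Ptch1 lies on the opposite strand and has 3 mismatches to the consensus, and 98.6% of all windows hold one at least as close. That of Hhip has 2 mismatches, which 52.6% of windows match or better. Both stretches are rich in G and C, at 78.4% and 76% of their bases. A missing match says only that these letters are not in this window.

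Smo, on chromosome 6 (29735503 to 29761365, plus strand), encodes the membrane protein that passes the signal into the cell. It was at 245 and 252 TPM in the wild-type and 198 and 225 TPM in the mutant anterior pieces, and at 185 and 194 TPM in the wild-type and 173 and 170 TPM in the mutant posterior pieces. In each region both mutant libraries were below both wild-type ones. The differences were small and did not pass, with -0.23 ± 0.09 in the anterior (limma adjusted p = 0.10) and -0.15 ± 0.09 in the posterior pieces (adjusted p = 0.34).

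Gli1, on chromosome 10 (127329882 to 127341974, minus strand), encodes an activator that is itself a target of the pathway. Anterior Gli1 stood at 22.9 and 18.1 TPM in the wild type and at 18.1 and 20.6 TPM in the mutant, with overlapping libraries and a difference of -0.074 ± 0.13 (limma adjusted p = 0.72). Posterior Gli1 stood at 31.0 and 28.8 TPM in the wild type and at 51.6 and 50.7 TPM in the mutant. The mutant posterior libraries were well separated from all others. Their mean of 51.2 ± 0.675 TPM was 1.71 times the wild-type mean of 29.9 ± 1.55 TPM (SD, n = 2 each), and the difference was 0.76 ± 0.13 (limma adjusted p = 0.0083). It was 0.81 (adjusted p = 0.06) without wild-type library 153 and 0.70 (adjusted p = 0.066) without wild-type library 156, so the call needed both wild-type libraries. Averaged over both pieces the difference was 0.34 ± 0.09 (limma adjusted p = 0.021), which was lost without mutant anterior library 163 (0.07), wild-type anterior library 156 (0.089) or wild-type posterior library 156 (0.066).

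Gli2, on chromosome 1 (118834132 to 119053619, minus strand), encodes the main activator. It was at 47.8 and 43.2 TPM in the wild-type and 52.6 and 63.5 TPM in the mutant anterior pieces, a difference of 0.34 ± 0.15 that did not pass (limma adjusted p = 0.13). Posterior Gli2 was at 44.5 and 40.4 TPM in the wild type and at 55.9 and 43.2 TPM in the mutant, with overlapping libraries (0.21 ± 0.15, adjusted p = 0.39). Gli2 was the most even of the 3 Gli genes over the 4 groups, with means between 42.4 and 58.1 TPM.

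Gli3, on chromosome 13 (15463235 to 15730026, plus strand), encodes the main source of the repressor form. It was at 98.9 and 103 TPM in the wild-type and 108 and 110 TPM in the mutant anterior pieces (difference 0.11 ± 0.16, limma adjusted p = 0.66). Posterior Gli3 was at 58.5 and 58.6 TPM in the wild type and at 58.6 and 39.3 TPM in the mutant. The mutant posterior libraries disagreed: library 159 was at the wild-type level and library 163 was below it. The difference of -0.28 ± 0.16 did not pass (limma adjusted p = 0.29). It was 0.0023 without library 163 and -0.56 (adjusted p = 0.015) without library 159.

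**Figure D2:**
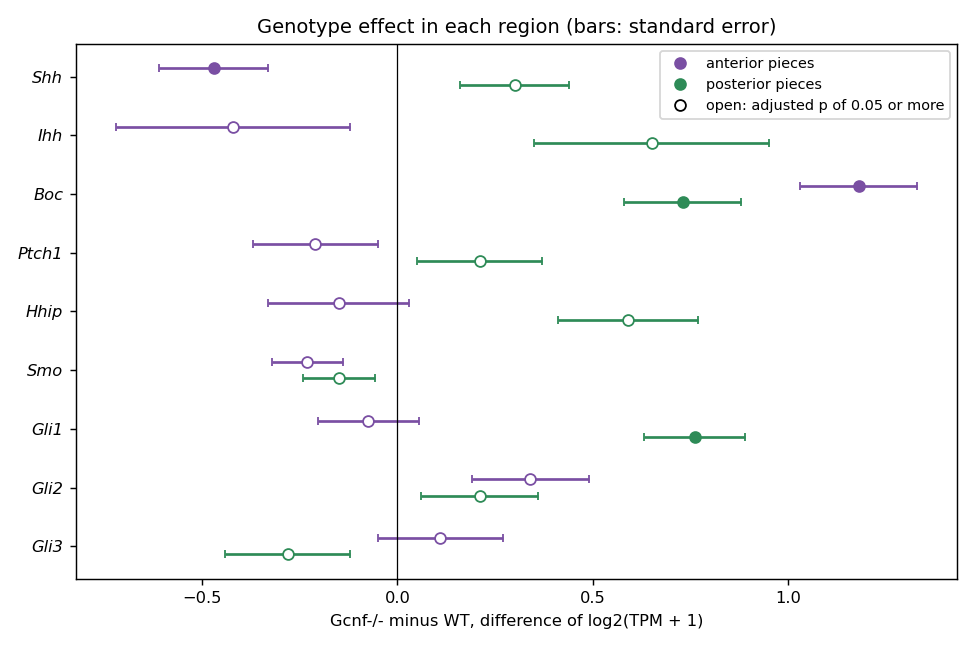
Genotype effect of the 9 genes, mutant minus wild type as a difference of log2(TPM + 1) (horizontal axis), in the anterior (violet) and the posterior (green) pieces, with bars of 1 SE and filled points for an adjusted p under 0.05. Boc is filled in both regions (1.18 and 0.73), Shh in the anterior pieces (-0.47) and Gli1 in the posterior pieces (0.76).

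The members' counts were read against all tested genes. In the anterior pieces 2 of 9 passed, Boc as higher and Shh as lower, while 23.6% of all genes passed, 13.3% as higher and 10.2% as lower, so the members' share of 22.2% was that of the table. The median difference was -0.15 over the members and 0.02 over all genes. In the posterior pieces 2 of 9 passed, Gli1 and Boc, both as higher, while 11.5% of all genes passed, 8.56% as higher and 2.93% as lower. The median was 0.30 over the members and 0.048 over all genes. Of the posterior calls over all genes, 74.5% were higher in the mutant, a share that was 54.3% under median-of-ratios scaling and 53.9% under quantile normalization, but none of the members' genotype differences in either region changed sign under these scalings.

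The test of the difference itself, the anterior minus the posterior genotype effect, called 0 of the 9 members with limma, while 1.01% of all genes passed, 0.413% as higher and 0.599% as lower. At an unadjusted p under 0.05 there were 4 members, all negative, against 12.6% of all genes. These were Shh (-0.77 ± 0.19, limma adjusted p = 0.12), Ihh (-1.07 ± 0.42, adjusted p = 0.34), Gli1 (-0.83 ± 0.18, adjusted p = 0.084) and Hhip (-0.74 ± 0.25, adjusted p = 0.26). For Gli1 and Hhip the negative anterior sign was lost without wild-type library 153 (0.086 and 0.068). The other members gave -0.42 for Ptch1 (limma adjusted p = 0.49), -0.088 for Smo (0.84), 0.13 for Gli2 (0.84), 0.39 for Gli3 (0.52) and 0.45 for Boc (0.44).

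Other cell types also differed between the genotypes. The summed level of 4 primitive erythroid markers (Hbb-y, Hba-x, Hbb-bh1 and Alas2) was 25300 to 43500 TPM in the mutant and 4190 to 9820 TPM in the wild-type anterior pieces, and 22000 to 43700 TPM against 6290 to 7530 TPM in the posterior pieces. All 4 passed as higher in the mutant in both regions, but with any 1 library left out only the anterior calls of Hbb-y and Alas2 held, and none of the posterior ones. With globin, mitochondrial and Mir6236 values removed and TPM rescaled, the difference was 1.23 for Boc in the anterior pieces, 0.74 for Boc and 0.77 for Gli1 in the posterior pieces, and -0.43 for Shh in the anterior pieces, close to the values with them. Early neuron markers (Tubb3, Elavl3, Neurod1 and Stmn2) summed to 387 to 549 TPM in the mutant and 131 to 138 TPM in the wild-type anterior pieces. Their posterior sums were 69.8 to 78.3 TPM against 41.7 to 42.1 TPM. In the anterior pieces 4 of 4 were called higher, where 13.3% of all tested genes were. In the posterior pieces 3 of 4 were called higher, where 8.56% of all tested genes were. Posterior Stmn2 was lower in the mutant (8.06 and 5.82 TPM against 8.78 and 9.37 TPM) and was not called. The part of early neurons in the level of Boc was not tested. Endothelial markers summed to 129 to 169 TPM against 115 to 146 TPM in the anterior and 240 to 260 TPM against 187 to 188 TPM in the posterior pieces. Heart markers varied widely within every group, with sums of 75.7 to 246 TPM in the mutant and 9.65 to 79.3 TPM in the wild-type anterior pieces, and of 235 to 1990 TPM and 256 to 772 TPM in the posterior pieces, with Nppa at 0 in 4 of the 8 libraries.

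Between the regions, Ihh and Gli1 were higher in the posterior pieces of the wild type, and Smo and Gli3 were higher in its anterior pieces. These 4 of 9 members passed, 2 in each direction, while 14.5% of all genes passed, 7.86% as higher and 6.65% as lower in the posterior pieces. The median of all genes was -0.10 on the log2(TPM + 1) scale, and the members' was 0.02. Ihh was 22.3 times as high in the posterior pieces by the ratio of means, which was 51.7 without wild-type anterior library 153 and 14.2 without library 156, a difference of 3.34 ± 0.30 (limma adjusted p = 0.00013). Gli3 gave -0.78 ± 0.16 (adjusted p = 0.012), from a mean of 101 TPM in the anterior to 58.5 TPM in the posterior pieces. Gli1 gave 0.53 ± 0.13 (limma adjusted p = 0.025) and Smo -0.39 ± 0.09 (adjusted p = 0.024). Shh did not differ detectably (0.02 ± 0.14, 95% interval -0.29 to 0.33, limma adjusted p = 0.94). Boc missed the threshold narrowly, at -0.54 ± 0.15 (limma adjusted p = 0.05, at the threshold when rounded), and passed under 12 of 22 alternatives. Ptch1 (0.37, limma adjusted p = 0.16), Hhip (0.28, 0.32) and Gli2 (-0.10, 0.69) did not pass. With any 1 wild-type library left out, the call of Smo was lost. That of Gli1 was lost without anterior library 156 (0.23) or posterior library 153 (0.12) or 156 (0.09), and that of Gli3 without the same libraries (0.07, 0.079 and 0.087). Smo also missed the threshold under median-of-ratios scaling (0.061) and quantile normalization (0.13).

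In the mutant, more of the pathway differed between the pieces. Here 7 of 9 members passed, 5 as higher and 2 as lower in the posterior pieces, while 16.1% of all genes passed, 8.01% as higher and 8.1% as lower. The members' median was 0.79 and that of all genes was -0.036. Higher in the posterior pieces were Ihh (4.41 ± 0.30, limma adjusted p = 2.1e-05, 108 times by the ratio of means, over anterior libraries with 6 and 8 reads), Gli1 (1.36 ± 0.13, adjusted p = 0.00016), Hhip (1.02 ± 0.18, adjusted p = 0.0046), Ptch1 (0.79 ± 0.16, adjusted p = 0.0097) and Shh (0.79 ± 0.14, adjusted p = 0.0043). Gli1 thus had a posterior mean 2.64 times its anterior mean, Hhip 2.37 times, Shh 1.76 times and Ptch1 1.75 times. Lower in the posterior pieces were Gli3 (-1.17 ± 0.16, limma adjusted p = 0.0014) and Boc (-0.99 ± 0.15, adjusted p = 0.0027). Smo (-0.30 ± 0.09, adjusted p = 0.062) and Gli2 (-0.23 ± 0.15, adjusted p = 0.36) did not pass. Of these calls, that of Ptch1 alone was lost with 1 library left out, mutant anterior library 163 (limma adjusted p = 0.062). The difference between both region effects is, by its construction, the same quantity as the difference of the genotype effects given above with its sign turned, and passed for none of the 9 members. The regions also differ in their cells: the summed levels of visceral endoderm, trunk and hindbrain markers were higher and those of forebrain and midbrain markers lower in the posterior pieces.

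**Figure D3:**
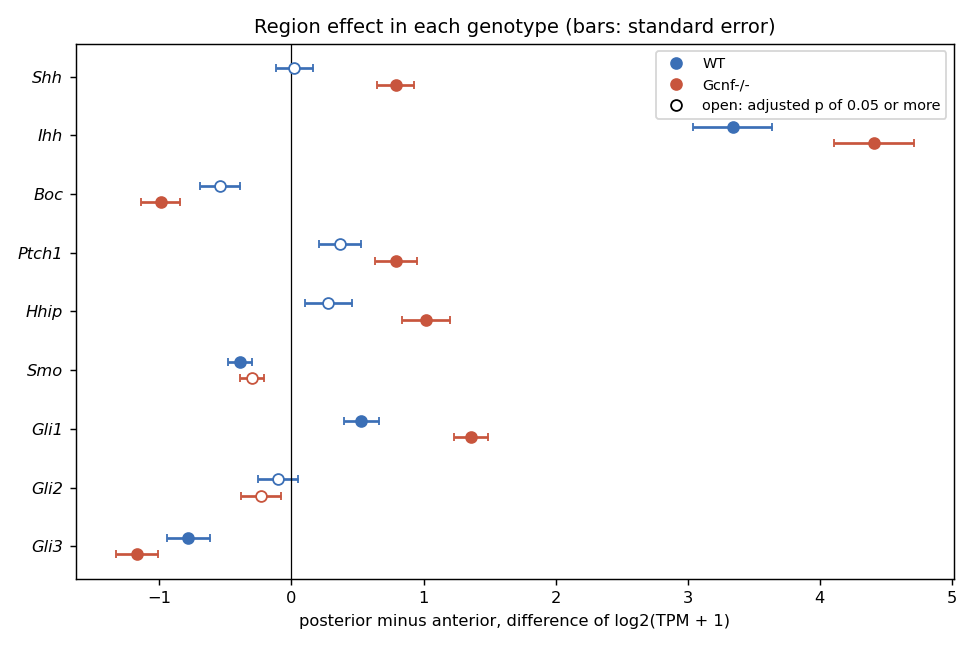
Region effect of the 9 genes, posterior minus anterior as a difference of log2(TPM + 1) (horizontal axis), in the wild type (blue) and Gcnf-/- (red), with bars of 1 SE and filled points for an adjusted p under 0.05. Filled points are 4 in the wild type and 7 in the mutant, and Ihh lies farthest to the right in both (3.34 and 4.41).

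The balance of the 3 Gli transcripts differed between the pieces. Gli1 made up 13.5% and 11% of their summed TPM in the wild-type anterior pieces, and 10.1% and 10.6% in the mutant anterior pieces. Its posterior shares were 23.1% and 22.6% in the wild type and 31.1% and 38.1% in the mutant. Gli1 had its largest shares in both mutant posterior libraries, which did not overlap with any other library. The share of Gli3 went the other way, with 58.3% and 62.7% in the wild-type anterior, 60.4% and 56.8% in the mutant anterior, 43.6% and 45.8% in the wild-type posterior and 35.3% and 29.5% in the mutant posterior pieces. Gli2 stayed between 26.3% and 33.7% in all libraries. With 2 libraries in each of the groups compared, an exact two-sided permutation test of such a share cannot give a p under 0.333. The shares were not tested and are given as values.

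**Figure D4:**
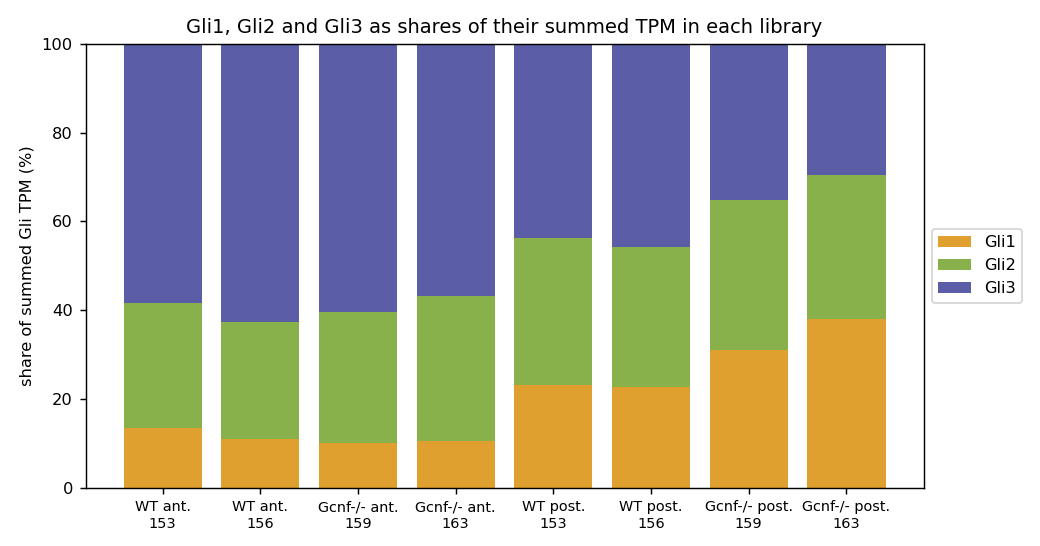
Gli1, Gli2 and Gli3 as stacked shares of their summed TPM in percent (vertical axis from 0 to 100) in each of the 8 libraries (horizontal axis). The Gli1 share is 10.1% to 13.5% in the anterior libraries, 22.6% and 23.1% in the wild-type posterior libraries, and 31.1% and 38.1% in the mutant posterior libraries.

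Among 4 other receptors and binding proteins, Cdon, a relative of Boc with the same task, was the gene that passed between the genotypes. It stood at 81.5 and 75.7 TPM in the wild-type and at 103 and 116 TPM in the mutant anterior pieces, without overlap. The difference was 0.48 ± 0.10 (limma adjusted p = 0.011), a call lost without mutant library 163 or either wild-type library (adjusted p up to 0.1). Posterior Cdon was at 43.8 and 40.3 TPM in the wild type and at 39.4 and 37.4 TPM in the mutant, a difference of -0.13 ± 0.10 that did not pass (limma adjusted p = 0.46). The anterior and posterior effects of Cdon differed by 0.60 ± 0.14, which did not pass either (limma adjusted p = 0.11). Like Boc, Cdon was lower in the posterior pieces of the mutant (-1.49 ± 0.10, limma adjusted p = 2.2e-05), and it was lower in those of the wild type as well (-0.89 ± 0.10, adjusted p = 0.00056). Gas1, a membrane-anchored ligand-binding protein, gave genotype differences of 0.14 (limma adjusted p = 0.55) and 0.34 (0.19). Gpc3, a glypican that binds Hedgehog ligands and competes with Ptch1 for them, gave 0.094 (limma adjusted p = 0.70) and 0.28 (0.27), and Lrp2, an endocytic receptor that binds Shh, -0.27 (0.47) and -0.63 (0.14). With limma 1 of the 4 passed in the anterior pieces, where 23.6% of all genes did, and 0 in the posterior pieces, where 11.5% did. At an unadjusted p under 0.05 there was 1 of the 4 in the posterior pieces, Lrp2, against 27.9% of all genes.

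Among genes for ligand processing and release, Dhh, the other Hedgehog ligand, was at 0 to 0.214 TPM (0 to 9 reads) and did not pass the filter. Hhat, which attaches palmitate to the ligands, and Disp1, which releases them from the cell, did not pass in either region. The Scube genes encode secreted proteins that carry the ligands away, and each of them passed in at least 1 region. Scube1 fell in the mutant anterior pieces (-0.64 ± 0.16, limma adjusted p = 0.022), from a mean of 39.4 to 25 TPM. It rose in the mutant posterior pieces (0.74 ± 0.16, adjusted p = 0.023), from 13.1 to 22.7 TPM, and the effects differed by -1.38 ± 0.23 (adjusted p = 0.032). Scube3 was higher in the mutant anterior pieces (0.84 ± 0.20, limma adjusted p = 0.017) and Scube2 in the mutant posterior pieces (0.54 ± 0.13, adjusted p = 0.03). Of the 5 tested genes, 2 passed in the anterior pieces, where 23.6% of all genes did, and 2 in the posterior pieces, where 11.5% did. Each of these calls was lost without at least 1 library of its own contrast: for Scube1 the adjusted p reached 0.14 in the anterior pieces without wild-type library 153 and 0.13 in the posterior pieces without wild-type library 156, for Scube3 0.11 without mutant library 163, and for Scube2 0.17 without wild-type library 153. Scube2 also lost its call under both other scalings, and the difference for Scube1 reached 0.18 without wild-type posterior library 156.

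Few genes of the relay from Smo to the Gli proteins passed. Of 17, 1 passed in the anterior pieces, where 23.6% of all genes did, Btrc, a ubiquitin ligase subunit that takes part in Gli processing (0.41 ± 0.12, limma adjusted p = 0.041, reaching 0.25 without wild-type library 153), and 0 passed with limma in the posterior pieces. At an unadjusted p under 0.05 there were 2 of 17 in the posterior pieces, against 27.9% of all genes. Posterior Btrc gave 0.43 ± 0.12 (limma adjusted p = 0.057), without overlap of the libraries. Averaged over both pieces 2 of 17 passed, where 32.8% of all genes did. These were Btrc as higher (0.42 ± 0.09, limma adjusted p = 0.0071) and Gpr161 as lower (-0.31 ± 0.10, adjusted p = 0.041). Sufu, which holds Gli proteins in the cytoplasm, gave -0.15 (limma adjusted p = 0.36) and -0.11 (0.57), and Kif7, a kinesin of the cilium tip, -0.27 (0.14) and -0.20 (0.31). Of 24 genes of the primary cilium, where the signal is passed on, 3 rose in each region and 21 did not pass. This share of 12.5% was below that of all tested genes in the anterior pieces (23.6%) and near it in the posterior pieces (11.5%). Of all tested genes, 13.3% were called higher in the anterior and 8.56% in the posterior pieces. The median difference of the 24 genes was 0.19 in each region, against 0.02 and 0.048 over all genes, and 20 of 24 were above 0 in each. Averaged over both pieces, 7 of the 24 passed as higher and 0 as lower, where 19.7% and 13.1% of all genes did. Dync2li1, of the motor for transport back down the cilium, passed in both, with 0.48 ± 0.10 (limma adjusted p = 0.0084) and 0.66 ± 0.10 (adjusted p = 0.0041), as did Fuz, with 0.65 ± 0.17 (adjusted p = 0.025) and 0.73 ± 0.17 (adjusted p = 0.028). The third was Ttc21b in the anterior (0.61 ± 0.10, limma adjusted p = 0.0044) and Bbs4 in the posterior pieces (0.58 ± 0.15, adjusted p = 0.039). With any 1 library left out, Ttc21b and the posterior call of Dync2li1 held, and the others reached adjusted p-values of 0.091 (Dync2li1, without wild-type library 156), 0.14 and 0.13 (Fuz, without mutant library 163 and wild-type library 156) and 0.17 (Bbs4, without wild-type library 156). Fuz and Bbs4 also lost their calls under quantile normalization.

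Genes that Hedgehog signalling induces in the neural tube, gut mesenchyme or sclerotome were lower or not called in the mutant anterior pieces, with 1 exception. Of 17 such genes, 8 fell and 1 rose there, where 10.2% of all tested genes fell and 13.3% rose. The median difference was -0.72, against 0.02 over all genes. Nkx2-9, a homeobox gene of the ventral neural tube, was at 83.2 and 70.1 TPM in the wild type and at 15.4 and 6.83 TPM in the mutant (-2.77 ± 0.31, limma adjusted p = 0.00064). Nkx2-1, a homeobox gene of the ventral forebrain, thyroid and lung, fell from a mean of 5.44 to 0.866 TPM (-1.79 ± 0.26, adjusted p = 0.0021), and Nkx2-2, which marks progenitors next to the floor plate, from 3.03 to 0.557 TPM (-1.37 ± 0.19, adjusted p = 0.002). Nkx6-1, of the ventral neural tube, fell from 27.2 to 11.8 TPM (-1.14 ± 0.18, limma adjusted p = 0.003) and Foxa2, of the floor plate, notochord and endoderm, from 22.9 to 13.5 TPM (-0.72 ± 0.13, adjusted p = 0.0066). Ccnd1, a G1 cyclin with many inputs besides Hedgehog, fell from 262 to 130 TPM (-1.01 ± 0.09, limma adjusted p = 0.00029), while Mycn, a growth regulator, was the gene that rose (0.43 ± 0.09, adjusted p = 0.0089). Olig2, of motor neuron progenitors, gave -0.75 ± 0.26 and did not pass (limma adjusted p = 0.072). With any 1 library left out, 5 of the 9 calls held, those of Nkx2-2, Nkx2-9, Nkx6-1, Nkx2-1 and Ccnd1. The calls of Foxa2 (0.051), Nkx6-2 (0.055), Foxl1 (0.1) and Mycn (0.1) were lost without wild-type library 153, which gave these adjusted p-values. The direct outputs Ptch1, Gli1 and Hhip did not pass in these same pieces.

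Posterior values of the same 17 genes had a median of 0.0034, against 0.048 over all genes, with 3 higher and 1 lower, where 8.56% of all tested genes were higher and 2.93% lower. Mycn (0.49 ± 0.09, limma adjusted p = 0.01), Nkx6-2 (0.62 ± 0.16, adjusted p = 0.038) and Nkx3-2, a gene of the sclerotome (0.67 ± 0.18, adjusted p = 0.046), were higher, and Ccnd1 was lower (-0.39 ± 0.09, adjusted p = 0.031). Each of these 4 calls was lost without wild-type posterior library 153 or other single libraries, with adjusted p-values up to 0.074 for Mycn, 0.21 for Nkx6-2, 0.17 for Nkx3-2 and 0.16 for Ccnd1, and that of Nkx6-2 also under both other scalings. Foxa2 (-0.042), Nkx2-2 (-0.084), Nkx2-1 (-0.093), Nkx2-9 (-0.60), Nkx6-1 (0.46) and Olig2 (0.29) did not pass. The anterior and posterior effects differed for Nkx6-1 (-1.60 ± 0.25, limma adjusted p = 0.026) and Nkx6-2 (-1.47 ± 0.22, adjusted p = 0.024), 2 of the 17 genes, with adjusted p-values of 0.14 and 0.11 without wild-type posterior library 153. Of all tested genes, 1.01% passed this test of the difference. Between the regions of the mutant, 10 of the 17 were higher and 1 was lower in the posterior pieces, where 16.1% of all tested genes passed. In the wild type 4 were higher and 3 lower, where 14.5% passed. The largest of these differences was that of Foxf1, a gene of gut mesenchyme, in both genotypes (5.18 ± 0.13 in the wild type and 5.21 ± 0.13 in the mutant, limma adjusted p = 2.2e-07 and 1.2e-07).

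**Figure D5:**
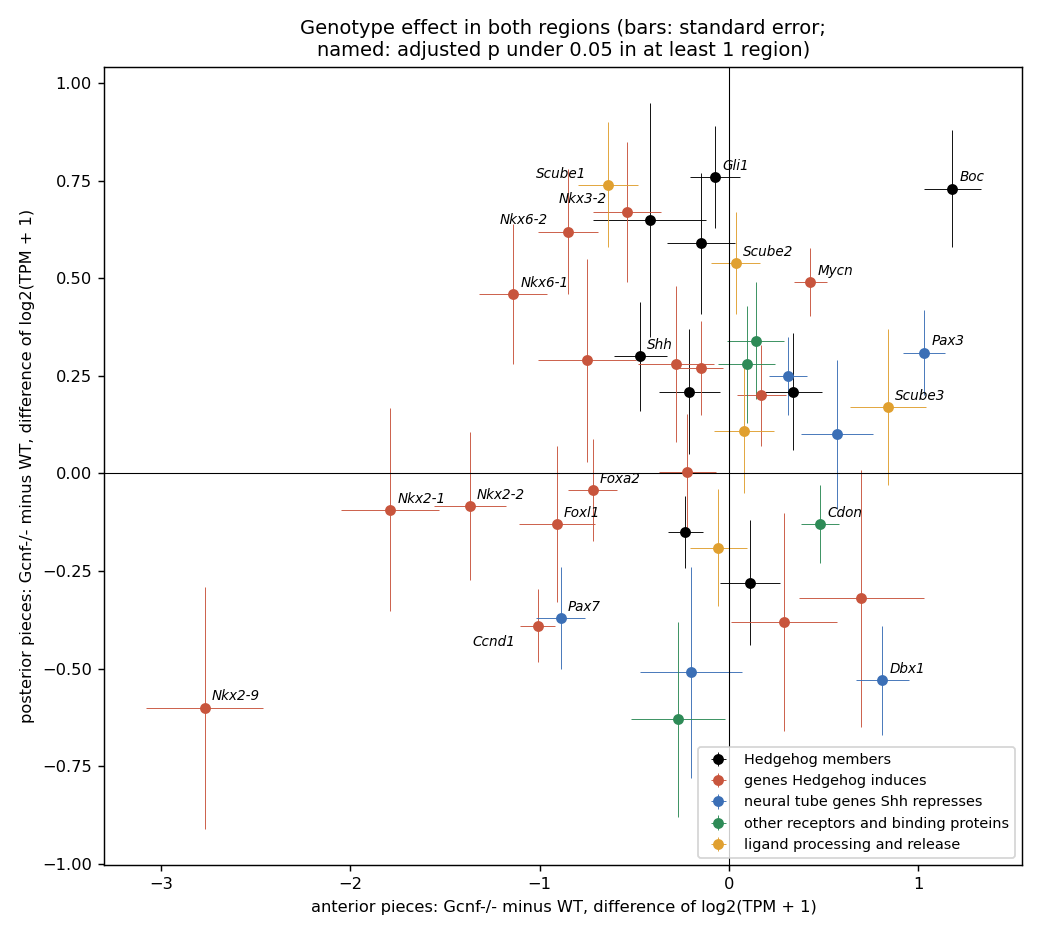
Genotype effect in the anterior (horizontal axis) against the posterior pieces (vertical axis), mutant minus wild type as differences of log2(TPM + 1), for the 9 Hedgehog pathway genes (black) and 4 lists of related genes (colours), with bars of 1 SE. Nkx2-9 lies farthest to the left (-2.77), Boc farthest to the right (1.18), and Gli1 has the posterior value of 0.76.

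Of 6 neural tube genes that Shh represses, 2 rose and 1 fell in the mutant anterior pieces, where 13.3% of all tested genes rose and 10.2% fell. Pax3, of the dorsal neural tube and crest, rose from a mean of 24.8 to 51.8 TPM (1.03 ± 0.11, limma adjusted p = 0.00058), and Dbx1, of interneuron progenitors, from 13.1 to 23.6 TPM (0.81 ± 0.14, adjusted p = 0.0053), while Pax7, also dorsal, fell from 22.7 to 11.8 TPM (-0.89 ± 0.13, adjusted p = 0.0025). Among the posterior effects that of Dbx1 alone passed, as lower (-0.53 ± 0.14, limma adjusted p = 0.048), and its effects differed between the regions by 1.35 ± 0.20 (adjusted p = 0.024). Without single libraries the posterior call was lost in all 8 fits (limma adjusted p up to 0.2), and that of the difference in 5 (up to 0.13 without wild-type posterior library 156), while the anterior call of Dbx1 was lost without wild-type library 153 (0.052).

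The tissues that make the ligands were followed by 11 genes of the notochord and floor plate. Their summed level was 216 to 241 TPM in the wild-type and 148 to 149 TPM in the mutant anterior pieces, and 293 to 296 TPM against 325 to 378 TPM in the posterior pieces. The posterior sums rest on Tbxt, also a gene of the tail bud, at 170 and 147 TPM in the mutant and 118 and 113 TPM in the wild type. Without Tbxt, left out after the values were seen, the posterior sums overlapped (207 and 179 TPM against 175 and 184 TPM), while the anterior sums did not (142 and 143 TPM against 234 and 211 TPM). The part of these cells in the level of Shh was not tested. Anterior calls were 4, all lower, where 10.2% of all tested genes were: Ntn1 (-0.86 ± 0.10, limma adjusted p = 0.00095), an axon guidance molecule of the floor plate, Spon1 (-1.04 ± 0.20, adjusted p = 0.0079), Foxa1 (-0.82 ± 0.16, adjusted p = 0.0075) and Foxa2. Posterior calls were 3, all higher, where 8.56% of all tested genes were: the notochord genes Noto (1.10 ± 0.24, limma adjusted p = 0.024) and Tbxt (0.45 ± 0.11, adjusted p = 0.034), and Spon1 (0.97 ± 0.20, adjusted p = 0.02). Spon1, a floor plate matrix protein, was the gene of this list whose effects differed between the regions (-2.01 ± 0.29, limma adjusted p = 0.02, reaching 0.13 without wild-type posterior library 153). Leaving out single libraries took the adjusted p to 0.056 for Spon1 and 0.051 for Foxa1 in the anterior pieces (mutant library 163), and in the posterior pieces to 0.15 for Noto and Spon1 (wild-type library 153) and 0.13 for Tbxt (wild-type library 156). Of 9 gut endoderm genes, 4 passed in the anterior pieces (1 rose and 3 fell, where 23.6% of all genes passed) and 1 rose in the posterior pieces (11.5%), Sox17 (0.98 ± 0.20, limma adjusted p = 0.019, reaching 0.15 without wild-type library 153), a gene of endoderm and endothelium. The 3 that fell in the anterior pieces were Trh, Foxa1 and Foxa2. Foxa1 and Foxa2 are the same calls as in the notochord and floor plate list, and Foxa2 is also among the genes Hedgehog induces. The sum of the 9 gut endoderm genes was 616 to 642 TPM in the wild-type and 514 to 775 TPM in the mutant posterior pieces, where Ihh was high.

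Genes with the most similar profile over the 8 libraries were found by the root mean square distance between log2(TPM + 1) values centred on each gene's own mean. Closest to Gli1 were Zfpm2 (distance 0.0661), Col6a3 (0.102), Frmd4b (0.111), Epha1 (0.114) and Filip1l (0.119). For Hhip they were B3gnt7 (0.104), Phldb2 (0.117), Phactr2 (0.121), Ano4 (0.137) and Rbms3 (0.142). For Ptch1 they were Ly6g6d (0.0996), Prickle2 (0.109), Spry4 (0.115), Usp13 (0.12) and Hipk3 (0.128), and for Shh they were Erich2 (0.132), Heg1 (0.133), Abi3 (0.156), Zdhhc14 (0.163) and Slc12a4 (0.165). No gene appeared in more than 1 of these 4 sets, and no member was among the 5 nearest of another.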

How the data were processed

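Libraries were made with a non-stranded poly-A kit (TruSeq v2) from RNA kept in RNAlater, per the labels' protocols, so reads of overlapping antisense genes cannot be told apart. The authors deposited TPM per Ensembl gene (mm10). CASAVA 1.8.2 and STAR are named in the submitters' processing notes, and for the counting tool and annotation the sources used here give no name. Names and loci came from GENCODE M21, which matched 55240 of 55421 identifiers. Read numbers were recovered from TPM and exon length, and 98.8% to 98.89% of values came out whole within 0.01 reads. TPM has the same sum in each library, so a very abundant transcript lowers all others.

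The filter kept 16699 genes that reached 1 TPM in 2 or more of the 8 libraries. Computed log2(TPM + 1) values entered limma 3.58.1 (R 4.3.3), with 4 group means, 4 residual and 4.68 prior degrees of freedom, a mean-variance trend, two-sided tests and Benjamini-Hochberg adjustment over all tested genes at 0.05. A fold change on this scale understates changes of low genes. The script was tested on simulated data, and 22 alternatives were run. Fits without 1 library leave a group with 1 library, which is assumed to vary like the others.

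The members and the gene lists were chosen with earlier results of these data known. All members are named; of other lists, the 5 genes with the smallest p in a contrast and a fixed set (Dhh, Gas1, Cdon, Sufu, Kif7, Foxa2, Nkx2-2, Nkx2-9, Nkx6-1, Olig2 and Nkx2-1); and for 4 members the 5 nearest profiles, without predicted, sex-linked and mitochondrial genes. Protein sequences were not analysed here, and some genes of the lists are not reported here.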

Additional observations from a re-analysis of the deposited data

Results flagged for a closer look

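Of all tested genes, 1.01% passed limma's test of the difference. The difference is given here as the anterior minus the posterior genotype effect on the log2(TPM + 1) scale. For 9 genes of the related lists, the genotype effect differed between the regions by this test. Among pathway genes and targets these were Scube1 (-1.38, adjusted p = 0.032), Nkx6-1 (-1.6, 0.026) and Nkx6-2 (-1.47, 0.024), and in the opposite direction Dbx1 (1.35, 0.024). In the ligand-producing tissues they were Spon1 (-2.01, limma adjusted p = 0.02) and Trh, a gene of the gut endoderm list (-2.04, 0.038). Among the markers of other cells they were Hoxb9 (2.34, limma adjusted p = 0.011) and Hoxc8 (2.03, 0.018), of the trunk, and Stmn2 (1.56, 0.017), of early neurons. Of these 9, only Hoxb9 passed with each single library left out (limma adjusted p up to 0.045). In the anterior libraries Hoxb9 was at 0.207 to 0.74 TPM (5 to 18 reads) and Hoxc8 at 0.0355 to 0.301 TPM (1 to 8 reads). For both genes the difference thus rests on the posterior pieces. Trunk and tail markers summed to 162 to 164 TPM in the mutant and 332 to 494 TPM in the wild-type posterior libraries. Hoxb9, Hoxc8 and Hoxa7 were lower there in the mutant. Tbx6 went the other way, at 60.0 and 54.1 TPM in the mutant and 40.0 and 39.9 TPM in the wild type.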

How the results depend on the processing

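Over 47 values of the members (17 of them called) and their alternatives, 912 of 1002 values kept direction and side of the threshold, 51 lost and 19 gained a call, and 20 changed sign, none of them called. The number of members called as differing by genotype in the anterior pieces was 2 and became 1 without a filter, under median-of-ratios scaling, under quantile normalization, without globin, mitochondrial and Mir6236 values, and without both libraries numbered 153, 156 or 163, with a range of 1 to 2 when single libraries were left out. In the posterior pieces it was 2 and became 1 without a filter or with library weights, 0 without both libraries numbered 153 or 156, and 4 without both numbered 159, with a range of 0 to 3. For the difference it was 0 and became 1 under quantile normalization (Gli1, -0.87, limma adjusted p = 0.047), with 0 to 0 without single libraries. For the averaged effect it was 2 and became 1 without a filter or without both libraries numbered 153 or 156, with a range of 1 to 3. Between regions of the wild type it was 4 and became 2 without a filter and 1 without both libraries numbered 153 or 156, with a range of 1 to 5. Between regions of the mutant it was 7, with a range of 6 to 7. Signs changed in the anterior genotype effect for Ptch1 (0.0052), Gli1 (0.086) and Hhip (0.068) without wild-type library 153 or both numbered 153, the lowest values without 1 library being -0.42, -0.23 and -0.37, and for Gli1 (0.014) without mutant library 159 or both numbered 159. They changed for Gli3 in the posterior effect (0.0023 without mutant library 163 or both numbered 163, lowest -0.56). In the difference they changed for Smo (0.065 under quantile normalization, 0.0012 without mutant anterior library 159, 0.011 without both numbered 159) and Gli2 (-0.0018 and -0.052 without mutant anterior or posterior library 163, -0.18 without both, highest 0.31). Between regions they changed for Shh in the wild type (-0.058 without anterior library 153, -0.10 without posterior library 156, -0.024 without both numbered 156, highest 0.14) and Gli2 in the mutant (0.086 without both numbered 163). The cause was not tested, beyond fewer libraries in these fits. With a pseudocount of 0.1 the region difference of Ihh was 4.5 (wild type) and 6.22 (mutant). The labels do not say that equal library numbers mark 1 embryo, and deviations of equal numbers correlated by 0.136 (mutant) and 0.0216 (wild type). Libraries of equal number were alike in the presence of Xist and Ddx3y, but so were all libraries numbered 153, 156 and 163. With the number as a replicate block, 5 members were called between regions of the wild type (Boc joined, adjusted p = 0.022), 7 in the mutant and 0 for the difference. Among the members, depth was limiting for Ihh in the anterior pieces, with 6 to 32 reads.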
